A study of Arabidopsis thaliana with 4 samples.

Results

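The kinesin superfamily of Arabidopsis thaliana was described here through 60 listed loci. A locus was measured where the platform annotation gave it at least 1 probe set with no other gene, and where there were several the brightest was used. This held for 40 of the 60 loci, out of 13286 loci with a probe set on the array. Axillary shoots collected 24 h after decapitation, the removal of the main shoot apex, gave 2 arrays, and axillary buds collected before it gave 2 arrays. All plants were of the accession Col-0, with no transgene or mutation named in the labels, grown in soil under continuous light; no source used here gives plant age or the number of plants per array. Total RNA was hybridized to ATH1 arrays, short-oligonucleotide arrays for the Arabidopsis genome, and each value is a probe set signal on a linear scale. Buds of intact plants at the later time were not part of the comparison, so decapitation, wounding, age, harvest time and tissue make-up cannot be told apart.

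Kinesins are motor proteins that use ATP to move along microtubules or to change how microtubules grow and shrink. In land plants the family is large, and many members work in cell division, where they build the spindle that separates chromosomes and the phragmoplast, the microtubule array on which the new cell wall is laid down. Other members act between divisions, in the placement of organelles, the ordering of cortical microtubules and the shaping of cells such as the branched leaf hairs called trichomes. The list was divided into 15 loci known from the spindle and phragmoplast (division kinesins), 10 known from interphase, transport or trichomes (interphase kinesins) and 35 assigned to neither. KIN12F and the kinesin-5 genes other than RSW7 were placed among the division kinesins by family alone. The annotation gave probe sets for 8 division, 4 interphase and 28 unassigned kinesins. HIK, TES, POK1, POK2, PAKRP1, ATK1 and ATK5 of the first class and ARK1, FRA1, KP1, KAC1, KAC2 and ZWI of the second were not analysed here.

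Every array had been scaled to the same trimmed mean, and the median signal lay between 40.6 and 40.9 on the shoot arrays and between 43.6 and 46.3 on the bud arrays. Across the tested probe sets log2 signals correlated at r = 0.957 between the shoot arrays and 0.952 between the bud arrays, against 0.808 to 0.895 between a shoot and a bud array. The labelled tissue could hardly be checked: of 29 marker genes of meristem, trichome, mesophyll, floral organs and root, 4 had a probe set. The meristem genes LAS (19.6 and 16.1 in shoots, 15.4 and 16.7 in buds) and CLV3 (4.39 and 1.22 in shoots, 1.06 and 7.32 in buds) lay below the lowest mean signal tested, 23.1. The trichome gene TRY, at 17.7 and 17.5 in shoots and 32.5 and 26.1 in buds, had a mean of 22.6 and was not tested either. RCA of the mesophyll, the only marker tested, was at 717 and 329 in shoots and at 469 and 526 in buds. Nothing in the labels tells if replicate arrays stand for separate plants, so the p-values cover the spread between these samples alone, and that spread may be technical.

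Kinesin genes of cell division had higher signals in the shoots, whereas no measured interphase kinesin passed the test in either direction. Of 8 division kinesins 7 rose, by 2.79- to 4.89-fold, and the median fold change of the class was 3.48 (log2 1.80). KIN12E, KIN12F and PAKRP2 of this class were bright enough for the test only through their shoot signals, as described below. The 4 interphase kinesins had fold changes between 1.01 and 1.49, with a median of 1.14 (log2 0.18). Among the unassigned members 9 of 21 tested rose, by 2.26- to 3.68-fold, and none fell. Of these 9, AT2G22610 and AT5G23910 were also bright enough for the test only through their shoot signals. In all, 16 of the 33 tested members, or 48.5%, were higher in shoots when limma p-values adjusted after Benjamini and Hochberg were held to 0.05, beside 10.2% of all 13648 tested probe sets. With the same test 0 members were lower, beside 12.0% of all tested probe sets called lower. At an unadjusted p under 0.05 in limma 18 members were higher and 2 lower. The share of all tested probe sets at that level was not taken, so neither count can be judged against it. Both shoot arrays lay above both bud arrays in 21 of the 33 members, beside 29.7% of all tested probe sets, and below them in 7, beside 35.5%. Over all tested probe sets the log2 fold change had a median of −0.06. In whole organs a larger share of dividing cells and more of a transcript per cell cannot be told apart.

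Only the brighter 60% of probe sets, by their log2 signal averaged over both groups, entered the test. Of the 40 measured members 33 met this and 7 did not. KIN12E, KIN12F, PAKRP2, AT2G22610 and AT5G23910 reached the limit only through their shoot signals, so a difference was bound to appear in these 5, and AT3G51150 reached it only through its bud signals. KIN12E, KIN12F and PAKRP2 are division kinesins, so the count, folds and median of that class rest partly on them. Among the 27 members whose signals reached the limit in both groups 11 rose, or 40.7%, beside 9.95% of the 12961 probe sets that did so. With no filter, all 40 members entered the test and 14 rose, or 35.0%, beside 4.45% of 22746 probe sets; AT5G02370 (adjusted p = 0.0582) and AT3G10180 (adjusted p = 0.0783) then missed the threshold.

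The result leaned on 1 array. Without shoot array 1, 1 of the 16 genes passed, RSW7, beside 1.69% of all tested probe sets called higher, although all 16 log2 fold changes stayed above 0, between 0.74 and 1.88. Without shoot array 2, 15 of the 16 passed, without bud array 2 also 15, and without bud array 1, 12 did, beside 7.03%, 8.65% and 7.00% of all tested probe sets called higher.

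**Figure D1:**
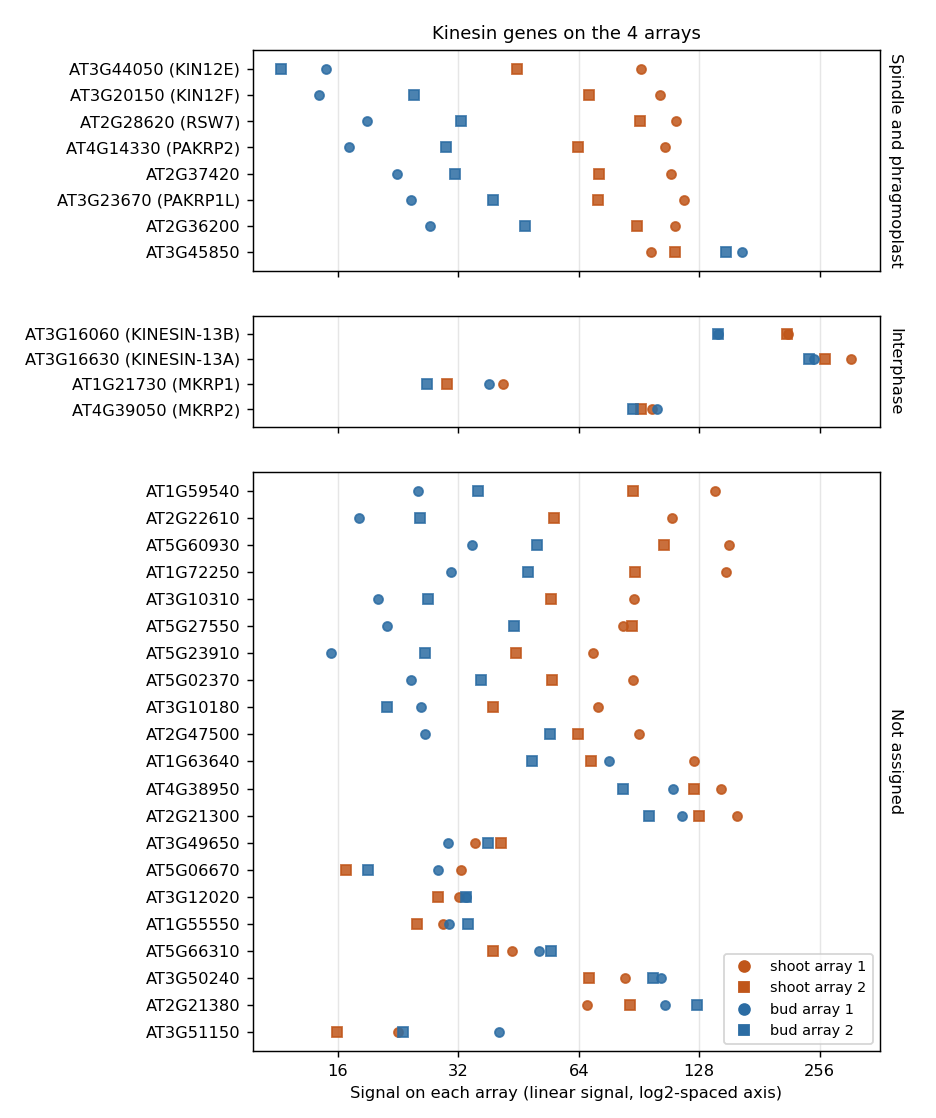
Signal of the 33 tested kinesin genes on each shoot array (orange) and bud array (blue), in a row per gene, on a log-spaced axis; levels of different genes are not comparable, since probe sets differ in brightness. In 7 of 8 division kinesins both shoot arrays lie above both bud arrays, and AT3G45850 has them below. Of the 4 interphase kinesins, KINESIN-13A and KINESIN-13B also have both shoot arrays above, and the groups overlap in MKRP1 and MKRP2.

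The kinesin-5 motors are bipolar: each complex holds antiparallel microtubules together and slides them apart in the spindle and phragmoplast. All 4 listed kinesin-5 genes had a probe set, and 3 of them rose, beside 10.2% of all tested probe sets called higher. RSW7 (AT2G28620), named after a temperature-sensitive mutant with radially swollen roots, had signals of 112 and 90.9 in shoots, against 18.9 and 32.4 in buds, a 4.08-fold difference (log2 fold change 2.03, SE 0.31, adjusted p = 0.00560, limma). AT2G37420 had 109 and 72.0 in shoots, against 22.4 and 31.4 in buds (3.34-fold, adjusted p = 0.00796 by limma). AT2G36200 had 111 and 89.4 in shoots, against 27.2 and 47.0 in buds (2.79-fold, adjusted p = 0.0143 by limma). In each of these genes the lower shoot array lay above the higher bud array.

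The remaining kinesin-5 gene went the other way. AT3G45850 had signals of 97.1 and 111 in shoots, against 164 and 149 in buds, so both shoot arrays lay below both bud arrays. The difference, a log2 fold change of −0.59 with a 95% confidence interval from −1.06 to −0.12, did not pass over all probe sets (adjusted p = 0.0740, limma). The interval of AT3G45850 lay wholly below 0, and those of RSW7 (1.31 to 2.75), AT2G37420 (1.05 to 2.43) and AT2G36200 (0.78 to 2.18) wholly above it. The difference between these genes was not tested.

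Kinesin-12 motors gather where the microtubule plus ends of the phragmoplast meet and, in the case of POK1 and POK2, mark the division plane. Of 6 listed kinesin-12 genes 3 were measured, and all 3 rose, beside 10.2% of all tested probe sets called higher. However, KIN12E and KIN12F were bright enough for the test only through their shoot signals. KIN12E (AT3G44050), known from the metaphase spindle, had signals of 91.6 and 45.0 in shoots, against 15.0 and 11.5 in buds (4.89-fold, log2 fold change 2.29, SE 0.38, adjusted p = 0.00704, limma). Its shoot arrays differed by 1.03 on the log2 scale. Both bud signals were below 23.1, a level not set apart from background here, which leaves the size of the fold uncertain. Its fitted change was the largest of the 33 tested members with all arrays, but RSW7 and KIN12F exceeded it without shoot array 1 or without bud array 2. Without bud array 2, PAKRP2, AT1G59540 and AT2G22610 exceeded it as well. With a pseudocount of 10 added to every signal the log2 fold change of KIN12E was 1.69.

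KIN12F (AT3G20150) had signals of 102 and 67.9 in shoots, against 14.3 and 24.8 in buds (4.42-fold, adjusted p = 0.00655 by limma). PAKRP1L (AT3G23670, listed as KINESIN-12B), which acts with its paralogue PAKRP1 at the phragmoplast midline, had 117 and 71.4 in shoots, against 24.4 and 39.0 in buds (2.97-fold, adjusted p = 0.0155 by limma). The groups did not overlap in either gene. PAKRP2 (AT4G14330), a kinesin-10 found on vesicles that travel along the phragmoplast, had 105 and 63.9 in shoots, against 17.1 and 29.8 in buds (3.63-fold, log2 fold change 1.86, SE 0.36, adjusted p = 0.0115, limma). The bud arrays of PAKRP2 differed by 0.80 on the log2 scale and its shoot arrays by 0.72, both smaller than the difference between the groups.

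**Figure D2:**
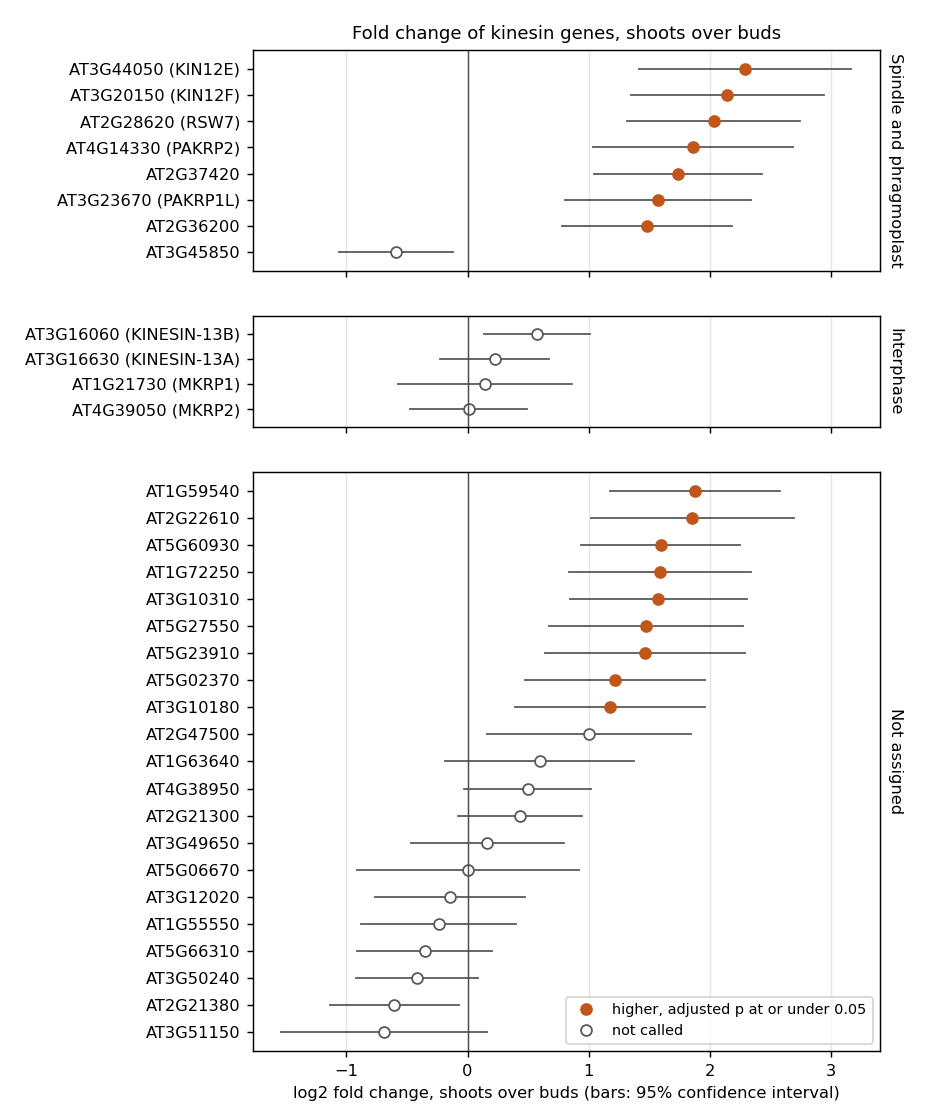
Fitted log2 fold change of the 33 tested kinesin genes, shoots over buds, with its 95% confidence interval; filled points passed the test at an adjusted p of 0.05 or less. Division kinesins other than AT3G45850 lie between 1.48 and 2.29, the 4 interphase kinesins between 0.01 and 0.58, and the unassigned members between −0.69 and 1.88.

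The interphase kinesins showed smaller differences, and 0 of 4 passed (limma), beside 10.2% of all tested probe sets called higher and 12.0% called lower. At an unadjusted p under 0.05, 1 of the 4 passed, with no share over all probe sets given at that level. In 2 of the 4, KINESIN-13A and KINESIN-13B, both shoot arrays lay above both bud arrays, beside 29.7% of all tested probe sets. KINESIN-13A (AT3G16630), a member of a family that takes microtubules apart at their ends and a gene known from trichome branching and from pits of the secondary wall, had signals of 307 and 265 in shoots, against 247 and 241 in buds. Its log2 fold change of 0.23 had a 95% confidence interval from −0.22 to 0.67 (adjusted p = 0.442, limma). Its paralogue KINESIN-13B (AT3G16060) had 213.1 and 212.6 in shoots, against 142.9 and 142.6 in buds, with almost no spread within either group. That difference (log2 fold change 0.58, interval 0.14 to 1.01) had an adjusted p of 0.0630 with limma; it passed when array medians were set equal (adjusted p = 0.0298).

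MKRP1 and MKRP2 encode kinesin-7 motors named for their targeting to mitochondria. MKRP1 (AT1G21730) had 41.3 and 30.0 in shoots and 38.1 and 26.7 in buds, and its groups overlapped (log2 fold change 0.14, interval −0.57 to 0.86). MKRP2 (AT4G39050) had 97.3 and 91.4 in shoots and 101 and 87.3 in buds, and its groups overlapped too (log2 fold change 0.01, interval −0.48 to 0.49). These intervals leave room for changes of moderate size, and a miss does not show that the genes were level. The highest upper bound among the 4 interphase kinesins was 1.01, for KINESIN-13B. Among the division kinesins, the intervals of AT2G36200 and PAKRP1L began below this bound, at 0.78 and 0.80, and that of AT3G45850 lay wholly below 0. The intervals of the 2 classes thus overlapped. The difference between the classes itself was not tested, and only 4 of 10 interphase kinesins were measured.

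Several members without an assigned role rose as far as the division kinesins. AT1G59540, listed as ZCF125, had signals of 140 and 87.7 in shoots, against 25.3 and 35.9 in buds (3.68-fold, log2 fold change 1.88, SE 0.31, adjusted p = 0.00663, limma). AT5G60930, a kinesin-4 and so a relative of FRA1, which is known from cell wall deposition, had 152 and 104 in shoots, against 34.5 and 50.4 in buds (3.02-fold, adjusted p = 0.00881 by limma). The other kinesin-4 with a probe set, AT3G50240 (KICP-02), had 83.3 and 67.8 in shoots, against 103 and 97.9 in buds, and did not pass (log2 fold change −0.42, interval −0.92 to 0.09, adjusted p = 0.208, limma). The groups did not overlap in any of the 3 genes, and in AT3G50240 the shoots were below the buds.

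Kinesin-14 motors move toward microtubule minus ends, and plants have an enlarged set of them. AT2G22610 and AT1G72250, kinesin-14 genes whose products carry a malectin-like domain, both rose. AT2G22610, however, was bright enough for the test only through its shoot signals. AT2G22610 had 109 and 55.5 in shoots, against 18.1 and 25.6 in buds (3.62-fold, adjusted p = 0.0122 by limma). AT1G72250 had 150 and 88.6 in shoots, against 30.7 and 47.8 in buds (3.01-fold, adjusted p = 0.0140 by limma). Shoot array 1 gave the highest signal of both genes.

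The kinesin-14 genes with a calponin homology domain, a fold that binds actin in other proteins, were not uniform. AT3G10310 had 88.0 and 54.5 in shoots, against 20.1 and 26.9 in buds, and rose (2.97-fold, adjusted p = 0.0131 by limma). AT2G47500 had 90.7 and 63.6 in shoots, against 26.4 and 54.3 in buds, and did not pass (log2 fold change 1.00, interval 0.16 to 1.85, adjusted p = 0.0845, limma), but passed with medians set equal (adjusted p = 0.0481), spike scaling (adjusted p = 0.00733) or without bud array 2 (adjusted p = 0.0110). AT1G63640 had 125 and 68.5 in shoots and 76.3 and 49.0 in buds, with overlapping groups (log2 fold change 0.60, adjusted p = 0.237, limma). AT1G09170, also of this group, was below the tested limit, at 8.33 and 9.83 in shoots and 19.6 and 14.1 in buds.

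A further 4 members rose. AT5G27550 had 82.5 and 87.0 in shoots, against 21.2 and 44.0 in buds (2.77-fold, adjusted p = 0.0218 by limma). AT5G23910, bright enough for the test only through its shoot signals, had 69.4 and 44.7 in shoots, against 15.4 and 26.4 in buds (2.76-fold, adjusted p = 0.0244 by limma). AT5G02370 had 87.3 and 54.7 in shoots, against 24.4 and 36.4 in buds (2.32-fold, adjusted p = 0.0317 by limma). These are among the least secure calls: without bud array 1 all 3 missed the threshold, at adjusted p values of 0.0533, 0.0708 and 0.102, and AT5G27550 also missed it without shoot array 2 (0.0699). AT3G10180, a kinesin-7 related to the animal kinetochore motor CENP-E, was measured by a pair of probe sets. The brighter had 71.4 and 39.0 in shoots, against 25.8 and 21.2 in buds (2.26-fold, adjusted p = 0.0425 by limma), and missed the threshold without bud array 1 (0.0507) or bud array 2 (0.0900), and the dimmer, below the tested limit, had 19.6 and 16.1 in shoots, against 9.49 and 7.90 in buds.

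The relatives of HIK in kinesin-7, a motor needed for the phragmoplast to expand, did not follow one direction. AT4G38950 (145 and 125 in shoots, against 110 and 82.7 in buds) and AT2G21300 (159 and 128 in shoots, against 116 and 95.8 in buds) had both shoot arrays above both bud arrays. AT5G66310 (43.6 and 39.1 in shoots, against 50.8 and 54.5 in buds) and AT3G51150 (22.6 and 15.9 in shoots, against 40.3 and 23.3 in buds) had them below. None of these passed, with log2 fold changes of 0.50, 0.43, −0.35 and −0.69 and adjusted p values from 0.154 to 0.329 (limma). AT2G21380, a kinesin-7, had 67.2 and 85.7 in shoots, against 105 and 126 in buds (log2 fold change −0.60, interval −1.14 to −0.07, adjusted p = 0.0961, limma).

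Of the other tested members, AT3G49650, a kinesin-8, had a log2 fold change of 0.16, AT5G06670 of 0.00, AT3G12020 of −0.15 and AT1G55550 of −0.24, and none of these 4 passed. Besides AT1G09170, the members below the tested limit were AT4G24170, AT1G18550, AT1G18410, AT1G73860, AT5G41310 and AT5G42490. The largest fitted changes among unassigned members, tested or not, belonged to 2 of these. AT5G42490 had 3.14 and 0.261 in shoots and 8.44 and 2.99 in buds, and AT5G41310 had 0.259 and 0.307 in shoots and 0.862 and 2.37 in buds. Signals this low were not shown to be above background, and no direction was read from them.

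The genes that rose also had differences between the arrays of a group in common. In 15 of the 16 shoot array 1 lay above shoot array 2, and in 14 bud array 1 lay below bud array 2, or 93.8% and 87.5%. Among the 17 other tested members these shares were 82.4% and 35.3%. Among all probe sets called higher they were 83.5% and 59.9%, and among all tested probe sets 56.2% and 47.4%. In 13 of the 16, or 81.2%, the order was shoot array 1, shoot array 2, bud array 2 and bud array 1 from high to low. That order held for 48.1% of all probe sets called higher, for 1 of the 17 other tested members and for 11.7% of all tested probe sets. It requires both shoot arrays above both bud arrays, which was so in all 16 genes that rose. The contrast with the other members and with all tested probe sets was thus partly fixed by the call itself. The median ratio of shoot array 1 to shoot array 2 was 1.60 in the genes that rose and 1.16 in the other tested members, against 1.20 over all probe sets called higher and 1.04 over all tested probe sets. That of bud array 1 to bud array 2 was 0.656 in the genes that rose and 1.05 in the other tested members, against 0.935 over all probe sets called higher and 1.02 over all tested probe sets. The difference between the shoot arrays was thus shared by most of the other tested members and by most probe sets called higher. The members are not independent replicates of these differences. The exceptions among the 16 were KIN12E and AT3G10180, with bud array 1 above bud array 2, and AT5G27550, with shoot array 2 the higher.

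**Figure D3:**
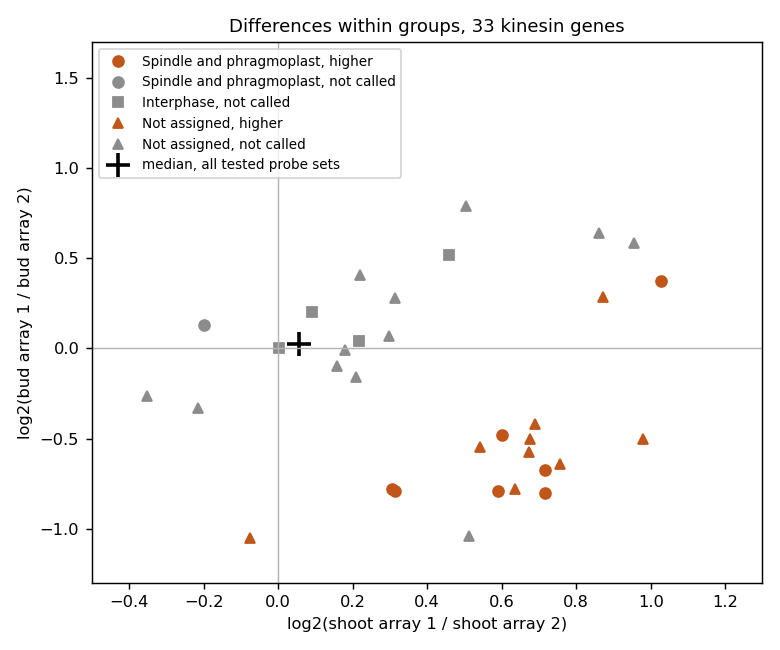
Difference between the arrays of a group for the 33 tested kinesin genes: log2 ratio of shoot array 1 to 2 (horizontal) against log2 ratio of bud array 1 to 2 (vertical), with the median of all tested probe sets as a cross. Of the 16 genes that rose (orange), 13 lie at the lower right, where shoot array 1 is above shoot array 2 and bud array 1 below bud array 2.

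Some signs of RNA quality moved with the groups as well. The controls gave 6 ratios of 3′ over 5′ signal, from a newer and an older pair of probe sets each for actin, GAPDH and ubiquitin. Of these 6 ratios 4 were lower on both shoot arrays than on both bud arrays, and only for actin did both pairs separate the groups. The ratio of the actin control was 0.990 and 1.14 on the shoot arrays, against 1.66 and 1.38 on the bud arrays, so it ran in the reverse of the order shared by the 13 genes. An older set of controls gave 2.13 and 3.19 in shoots, against 5.81 and 6.67 in buds, for actin. For GAPDH the older set gave 0.714 and 0.601 in shoots, against 1.51 and 0.812 in buds, and for ubiquitin 0.966 and 0.973 in shoots, against 1.04 and 1.02 in buds. The groups were thus apart in both actin controls and in the older GAPDH and ubiquitin controls. The newer ratios for GAPDH (1.14 and 0.938 in shoots, 1.20 and 1.08 in buds) and ubiquitin (0.718 and 0.887 in shoots, 0.704 and 0.963 in buds) overlapped between the groups. The genomic span of the members that rose had a median of 5574 bp, against 6030 bp in the other tested members. Both spans exceeded the median of 2412 bp over tested probe sets with 1 locus, and of 2345 bp over those among them called higher. A genomic span is not a transcript length. The part of RNA quality in the result was not tested beyond these values.

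**Figure D4:**
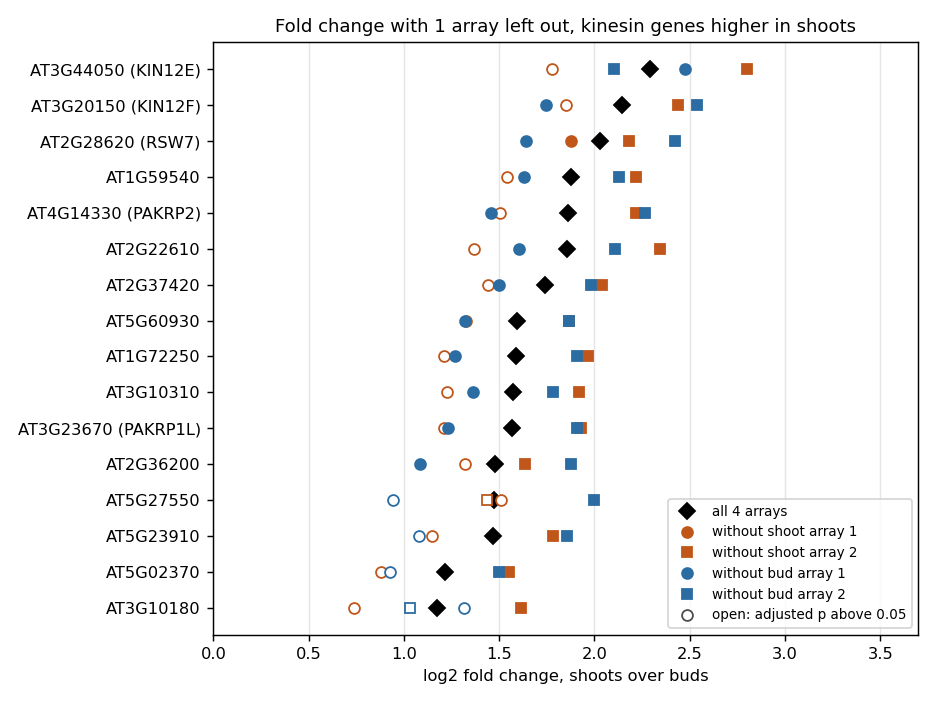
Log2 fold change, shoots over buds, of the 16 kinesin genes that rose, with all 4 arrays (diamonds) and with each array left out; open symbols missed an adjusted p of 0.05. All values lie above 0, and without shoot array 1 the symbol of RSW7 alone is filled.

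Partner genes of these motors were seen only in part, since 4 of 43 listed genes of the spindle, division plane and cell plate had a probe set. TIO (AT1G50240, listed as FU), a protein kinase of the phragmoplast that binds PAKRP1 and PAKRP1L, rose: its brighter probe set had 240 and 156 in shoots, against 66.9 and 72.6 in buds (2.78-fold, log2 fold change 1.47, SE 0.25, adjusted p = 0.00739, limma). A second TIO probe set had 112 and 87.3 in shoots, against 25.1 and 44.0 in buds (2.97-fold, adjusted p = 0.0127 by limma). The brighter TIO probe set did not pass when shoot array 1 was left out (adjusted p = 0.0547).

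MAP65-6 (AT2G01910) was listed as a member of the family that bundles microtubules, and a division role of its own was not checked here. Its signal fell, with 120 and 124 in shoots, against 261 and 193 in buds (log2 fold change −0.88, adjusted p = 0.0254, limma). It did not pass when shoot array 1 (adjusted p = 0.123), shoot array 2 (0.0711) or bud array 1 (0.113) was left out and with spike scaling (0.0717). KEULE (AT1G12360), needed for vesicle fusion at the cell plate, had 146 and 126 in shoots, against 213 and 165 in buds (log2 fold change −0.47, adjusted p = 0.160, limma). PHGAP1 (AT5G12150), linked to the division site, had 305 and 336 in shoots and 344 and 310 in buds, with overlapping groups. Of the 4 measured partner genes 1 was higher and 1 lower, beside 10.2% and 12.0% of all tested probe sets. With so few measured, no direction was read for the partner genes as a group.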

How the data were processed

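RNA of 2 shoot and 2 bud arrays was compared. The authors deposited linear intensities; the submitters' processing notes name MAS5 and GCOS, without versions. The trimmed mean of every array was 100.0, which hides any change of total RNA per cell. Probe sets were named through a platform annotation and TAIR10.1 loci: of 22746 non-control probe sets 13513 had 1 gene, 503 several and 8730 no listing, and 13436 matched 1 locus. Log2 signals of the 13648 probe sets in the upper 60% by mean were fitted by lmFit and eBayes with an intensity trend and no block (limma 3.58.1, R 4.3.3), with a Benjamini-Hochberg threshold of 0.05. Folds are ratios of geometric means. All 4 arrays entered the fit; the script was tested on simulated data. With 2 arrays a group, the smallest two-sided p of an exact permutation test is 0.333. The number of arrays limits the precision. Every measured member is named, with its 4 signals where it passed, has an assigned class, or is among the 3 unassigned members of largest change; some others were added after their values were seen. Members and lists were chosen with earlier results of these data known. Alternatives covered filters, scalings, a pseudocount, the variance trend, the probe set of a locus, a replicate block and each array left out. Sequences were not used here.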

Additional observations from a re-analysis of the deposited data

How the results depend on the processing

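Among the 16 kinesin genes higher in shoots, all passed with medians set equal, quantile normalization, spike scaling, a pseudocount of 10, no variance trend or the replicate block, 15 with the mean of a locus's probe sets and 14 with no filter. With the stricter filter (upper 40%) 10 members were tested and 1 was higher (beside 12.6% of all probe sets tested), AT5G60930, as the other 15 were no longer tested; 0 division kinesins were then higher. With each array left out, between 1 and 15 of the 16 passed; counts of all members higher ran from 1 to 16, of division kinesins from 1 to 7 and of partner genes from 0 to 1 higher and 0 to 1 lower. The median log2 fold change ran from 1.47 to 2.11 for division kinesins and from 0.0399 to 0.353 for interphase kinesins, which had 0.33 with medians set equal and 0.31 with spike scaling. One interphase kinesin, KINESIN-13B, was higher with medians set equal (1) or the replicate block (1). With spike scaling 0 partner genes were lower. Over all probe sets 230 to 1181 were higher and 432 to 1468 lower with an array left out, and 944 were lower without bud array 1. The cause of these shifts was not tested.

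With the replicate block 2109 probe sets were higher and 2548 lower, beside 1388 and 1635 without it, 2 members were lower (AT3G45850 and AT2G21380), of which 1 was a division kinesin, and AT2G47500, AT1G63640 and KINESIN-13B were higher. Deviations of same-numbered arrays from their group means correlated at r = 0.225 across probe sets; with 2 pairs and no stated link the arrays share only a number, so the block was not used. Over the tested probe sets the log2 fold change had a median of 0.08 with medians set equal and 0.06 with spike scaling, against −0.06 without them. Signals below 23.1 were not set apart from background. A group mean below it limits the folds of KIN12E, KIN12F, PAKRP2, AT2G22610 and AT5G23910 (low in buds), of AT3G51150 (low in shoots) and of the 7 untested members. A single bud array below 23.1 also limits those of RSW7, AT2G37420, AT3G10310, AT5G27550 and AT3G10180. AT5G06670 had both a shoot array and a bud array below it.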
